A study of Mus musculus with 16 samples.

Results

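The 44 mitosis genes encode cyclin B-Cdk1 and its activators, the mitotic kinases, the spindle checkpoint, the machinery of anaphase onset, kinetochore proteins, spindle motors, cytokinesis proteins and the condensin I complex, together with Top2a and Mki67. They were listed by symbol for their textbook roles, with earlier results of these data known, and all 44 were found among the 13652 genes of the count files. RNA sequencing had been run on cells of AML246, a murine line of acute myeloid leukaemia kept in medium with IL-3. The series title speaks of restoring and knocking down PU.1, the transcription factor encoded by Spi1. The 16 libraries form 8 groups of 2. Cells on doxycycline (0.1 ug/mL, added at day 0) were taken after 4, 8 and 12 days as total viable cells, and after 12 days also as a sort of Cd11b-high cells. Cells off doxycycline were taken 4, 8 and 12 days after its withdrawal at day 12, that is on days 16, 20 and 24 of the course, as total viable cells. Untreated cells of day 0 are the starting point. All groups come from 1 cell line, and the labels state neither its alleles nor if the 2 replicates of a group were grown apart. The p-values thus measure a spread between libraries that may be technical. The untreated state was sampled at day 0, so the day of the course and the treatment cannot be told apart.

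Mitosis begins when cyclin B-Cdk1, freed of its inhibitory phosphates by the CDC25 phosphatases, drives chromosome condensation and spindle assembly. The spindle checkpoint holds the anaphase-promoting complex (APC/C) in check until every kinetochore is attached. The APC/C with its activator Cdc20 then marks securin and cyclin B for destruction, chromosomes part, and the central spindle guides cytokinesis. Many of these genes are transcribed in the G2 and M phases through a pair of promoter elements, the cell cycle genes homology region (CHR), read by MuvB complexes such as DREAM and B-Myb-FOXM1, and the CCAAT box, read by NF-Y.

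The promoters of the members hold both elements often. RefSeq promoter windows (GRCm38.p6, 250 bases before to 50 after the start) were at hand for 37 of the 44 members, and none for Ccna2, Cdc25c, Aurkb, Incenp, Tpx2, Kif20a and Smc4. A CHR, searched as TTTGAA or TTCGAA on both strands, was in a window of 29 of the 37 members (78.4%; Prc1 and Ect2 have 2 windows each), against 21.7% of the 27025 genes with a window and 16.4% of the 10257 of them that were measured. CCAAT on either strand was in 28 of 37 (75.7%), against 41.1% of all and 43.4% of measured genes. The TATAAA box was in 1 of 37 (2.7%), against 15.7% and 8.76%. A CHR and a CCAAT shared a window in 25 of 37 members (67.6%), against 8.61% of all and 7.05% of measured genes. In the last 100 bases of the window, a stretch chosen after the positions were seen, 26 of 37 members (70.3%) had a CHR, against 6.12% and 4.33%. These matches describe letters and are not shown to be bound sites.

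The windows below, 300 bases each, belong to the member of each role, among those with a window, with the largest F statistic over the 8 groups, so that letters and values can be read side by side. They lie at chr2:131186698-131186997 (Cdc25b), chr7:122159185-122159484 (Plk1), chr2:118597961-118598260 (Bub1b), chr4:118437294-118437593 (Cdc20, minus strand), chr3:135212313-135212612 (Cenpe), chr9:122950831-122951130 (Kif15), chr9:61946750-61947049 (Kif23, minus strand) and chr5:45669675-45669974 (Ncapg), on the plus strand unless stated. Each is written 5′ to 3′ in the direction of the gene, and capitals mark the CHR and CCAAT matches, read on either strand.
Cdc25b: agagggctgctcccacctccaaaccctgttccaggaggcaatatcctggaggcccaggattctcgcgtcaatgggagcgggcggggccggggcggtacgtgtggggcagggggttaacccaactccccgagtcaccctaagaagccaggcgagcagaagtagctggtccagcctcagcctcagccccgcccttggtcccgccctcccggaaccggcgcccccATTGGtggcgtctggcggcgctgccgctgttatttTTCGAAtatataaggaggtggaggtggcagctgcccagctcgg
Plk1: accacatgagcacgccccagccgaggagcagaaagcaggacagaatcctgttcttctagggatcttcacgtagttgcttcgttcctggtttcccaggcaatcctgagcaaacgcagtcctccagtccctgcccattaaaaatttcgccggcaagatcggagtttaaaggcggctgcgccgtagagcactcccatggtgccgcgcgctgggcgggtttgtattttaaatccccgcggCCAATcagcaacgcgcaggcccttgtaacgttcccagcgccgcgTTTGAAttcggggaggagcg
Bub1b: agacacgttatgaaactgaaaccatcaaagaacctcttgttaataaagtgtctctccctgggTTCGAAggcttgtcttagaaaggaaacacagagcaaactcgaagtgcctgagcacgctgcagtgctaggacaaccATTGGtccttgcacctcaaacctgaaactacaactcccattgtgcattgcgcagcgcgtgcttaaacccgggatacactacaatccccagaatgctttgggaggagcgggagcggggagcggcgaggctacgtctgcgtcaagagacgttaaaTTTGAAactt
Cdc20: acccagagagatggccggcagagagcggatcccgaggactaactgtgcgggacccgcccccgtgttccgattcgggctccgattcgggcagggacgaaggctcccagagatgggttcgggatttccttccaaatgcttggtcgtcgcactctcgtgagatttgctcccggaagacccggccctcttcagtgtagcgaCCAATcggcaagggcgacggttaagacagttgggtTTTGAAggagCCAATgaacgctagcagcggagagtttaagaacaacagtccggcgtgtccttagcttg
Cenpe: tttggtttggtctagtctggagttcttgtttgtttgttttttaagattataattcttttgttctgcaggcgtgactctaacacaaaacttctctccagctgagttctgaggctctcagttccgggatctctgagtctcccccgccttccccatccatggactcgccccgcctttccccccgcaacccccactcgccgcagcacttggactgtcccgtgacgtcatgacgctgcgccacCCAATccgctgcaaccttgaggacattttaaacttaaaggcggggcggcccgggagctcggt
Kif15: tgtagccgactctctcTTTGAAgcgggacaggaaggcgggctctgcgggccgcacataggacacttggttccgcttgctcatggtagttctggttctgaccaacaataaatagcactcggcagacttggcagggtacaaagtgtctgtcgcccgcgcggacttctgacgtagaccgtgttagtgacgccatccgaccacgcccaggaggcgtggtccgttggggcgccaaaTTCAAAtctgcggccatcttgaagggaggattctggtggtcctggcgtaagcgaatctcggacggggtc
Kif23: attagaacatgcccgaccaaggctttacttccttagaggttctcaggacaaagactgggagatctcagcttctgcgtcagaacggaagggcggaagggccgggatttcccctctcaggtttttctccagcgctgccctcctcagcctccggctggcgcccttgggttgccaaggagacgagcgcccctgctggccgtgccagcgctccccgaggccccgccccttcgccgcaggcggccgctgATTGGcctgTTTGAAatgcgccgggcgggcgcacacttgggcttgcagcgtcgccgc
Ncapg: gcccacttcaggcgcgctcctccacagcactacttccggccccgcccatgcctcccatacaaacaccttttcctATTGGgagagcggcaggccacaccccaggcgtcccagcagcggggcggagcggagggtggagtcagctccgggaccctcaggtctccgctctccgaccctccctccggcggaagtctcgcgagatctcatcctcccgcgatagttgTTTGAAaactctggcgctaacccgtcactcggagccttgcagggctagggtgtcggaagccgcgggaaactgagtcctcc
Cdc25b, Plk1, Kif23 and Ncapg carry 1 CHR with 1 CCAAT upstream of it, Cdc20 has 1 CHR between 2 CCAAT, Bub1b has 2 CHR matches and 1 CCAAT, Kif15 has 2 CHR matches and no CCAAT, and Cenpe has a CCAAT and no CHR. Both elements stood in Cdc25b, which rose on doxycycline, and in Ncapg, which fell.

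The gene named by the series title and the gene of the sort marker served as checks of the groups on and off doxycycline. They do not check the sort. No gene (0 of 13652), that of the sort marker included, was called higher in Cd11b-high cells than in total cells of day 12. Spi1 averaged 222 CPM after 12 days on and 46.0 after 12 days off, against 61.5 untreated, and Itgam, which encodes Cd11b, 694 and 1.29 against 1.59 CPM (read counts scaled to a common library size with TMM factors). Libraries held 12962801 to 26509803 reads, of which the members took 99248 to 226632, and no member had fewer than 167 reads in a library. The replicates of 12 days off differ by gene length. There, replicate A over replicate B ran lower the longer the gene: across the 44 members Spearman's rho with length was -0.83, and across all genes averaging 10 CPM or more it was -0.76, given as descriptions over genes of 1 pair of libraries. The 22 shorter members had a median log2 ratio of A over B of 0.23 and the 22 longer ones of -0.12. Of the members, 14 were more than 1.25-fold apart there, against 0 to 3 in the other groups. Smaller trends of A over B with length were present elsewhere, with a rho over members from -0.50 (4 days off) to 0.20 (untreated), and over all these genes of -0.41 at 4 days off, -0.40 at 4 days on and -0.27 at 8 days off. Counts over all 44 members at 12 days off are given with and without replicate A, together with the members whose call then changed. Counts by role and counts of other lists are given with both replicates only. The part of RNA quality in all these counts was not tested. Cdc20, Pttg1, Ube2c and Cenpa, all short, stood higher in A, and Mki67 and Smc2, both long, higher in B.

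**Figure D1:**
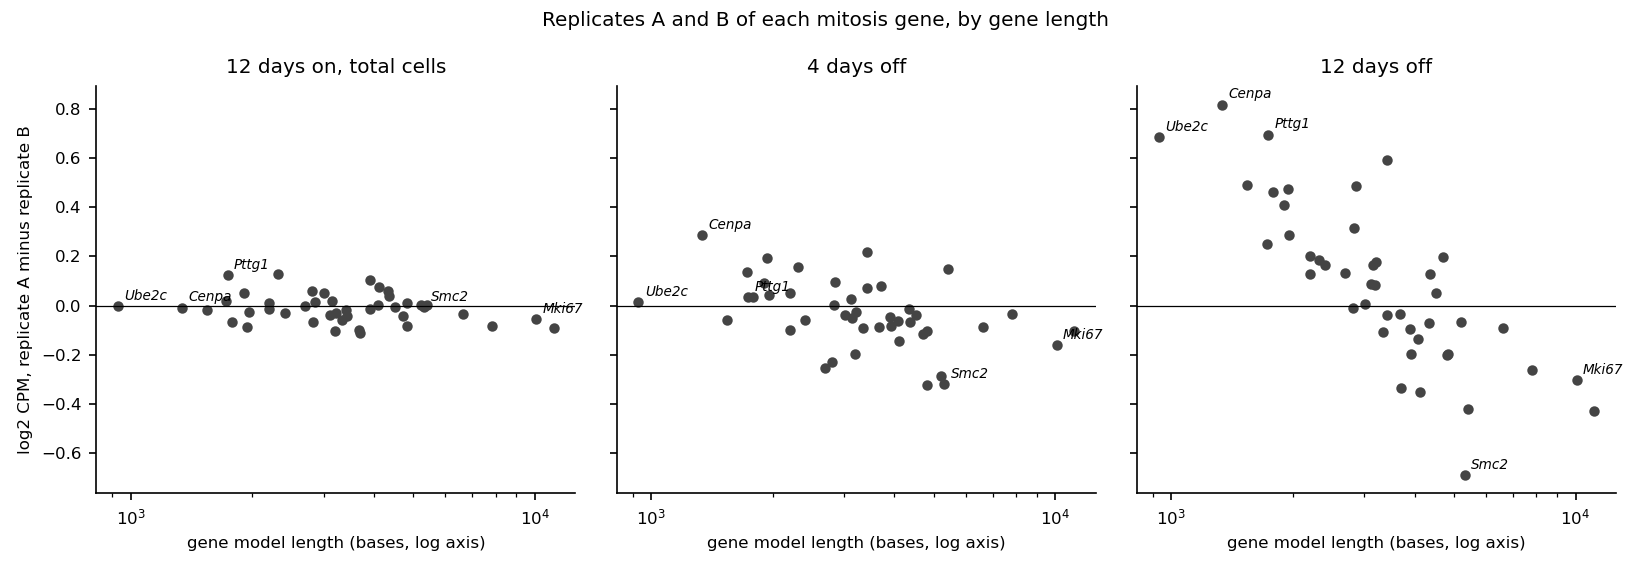
Log2 ratio of replicate A over replicate B for each of the 44 members (points) against gene length in bases (log axis), at 12 days on in total cells, 4 days off and 12 days off. At 12 days off the points run downward with length (Spearman's rho -0.83), at 4 days off the rho is -0.50 with no member over 1.25-fold apart, and at 12 days on the points lie close to 0.

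Most of the members changed over the 8 groups, in patterns that differed between genes. In the test of any difference between groups, 37 of 44 members passed (84.1%; edgeR quasi-likelihood test, Benjamini-Hochberg adjusted p under 0.05 over 13652 genes), against 83.8% of all genes, so as a share the members are near the background. The 7 that did not pass were Ccnb1, Cdk1, Aurkb, Birc5, Incenp, Cenpa and Ect2. The group means of the 44 spanned from 1.17-fold (Incenp) to 3.13-fold (Cdc25b), with a median over the 44 of 1.62-fold. Per kilobase of gene length, the mean over all libraries ran from 8.19 CPM per kilobase for Cenpf to 197 for Top2a. The summed CPM of the 44 members averaged 7272 ± 70.0 untreated, 7510 ± 509.8 after 4 days on, 8777 ± 329.5 after 8, 9031 ± 36.8 after 12, 9372 ± 457.5 in the Cd11b-high sort of that day, 8404 ± 344 after 4 days off, 7204 ± 202 after 8 and 6782 ± 138 after 12 (SD, n = 2). That sum is weighted towards the most abundant members, Top2a, Smc4 and Mki67. By group mean, 14 members were highest in the Cd11b-high sort of day 12, 6 in total cells of that day, 9 untreated and 6 at 12 days off. The lowest group mean was untreated for 14 members and at 12 days off for 16, where the replicates differ by gene length. Like counts over all genes were not made. In bulk RNA, fewer cells in mitosis and less RNA per mitotic cell cannot be told apart.

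**Figure D2:**
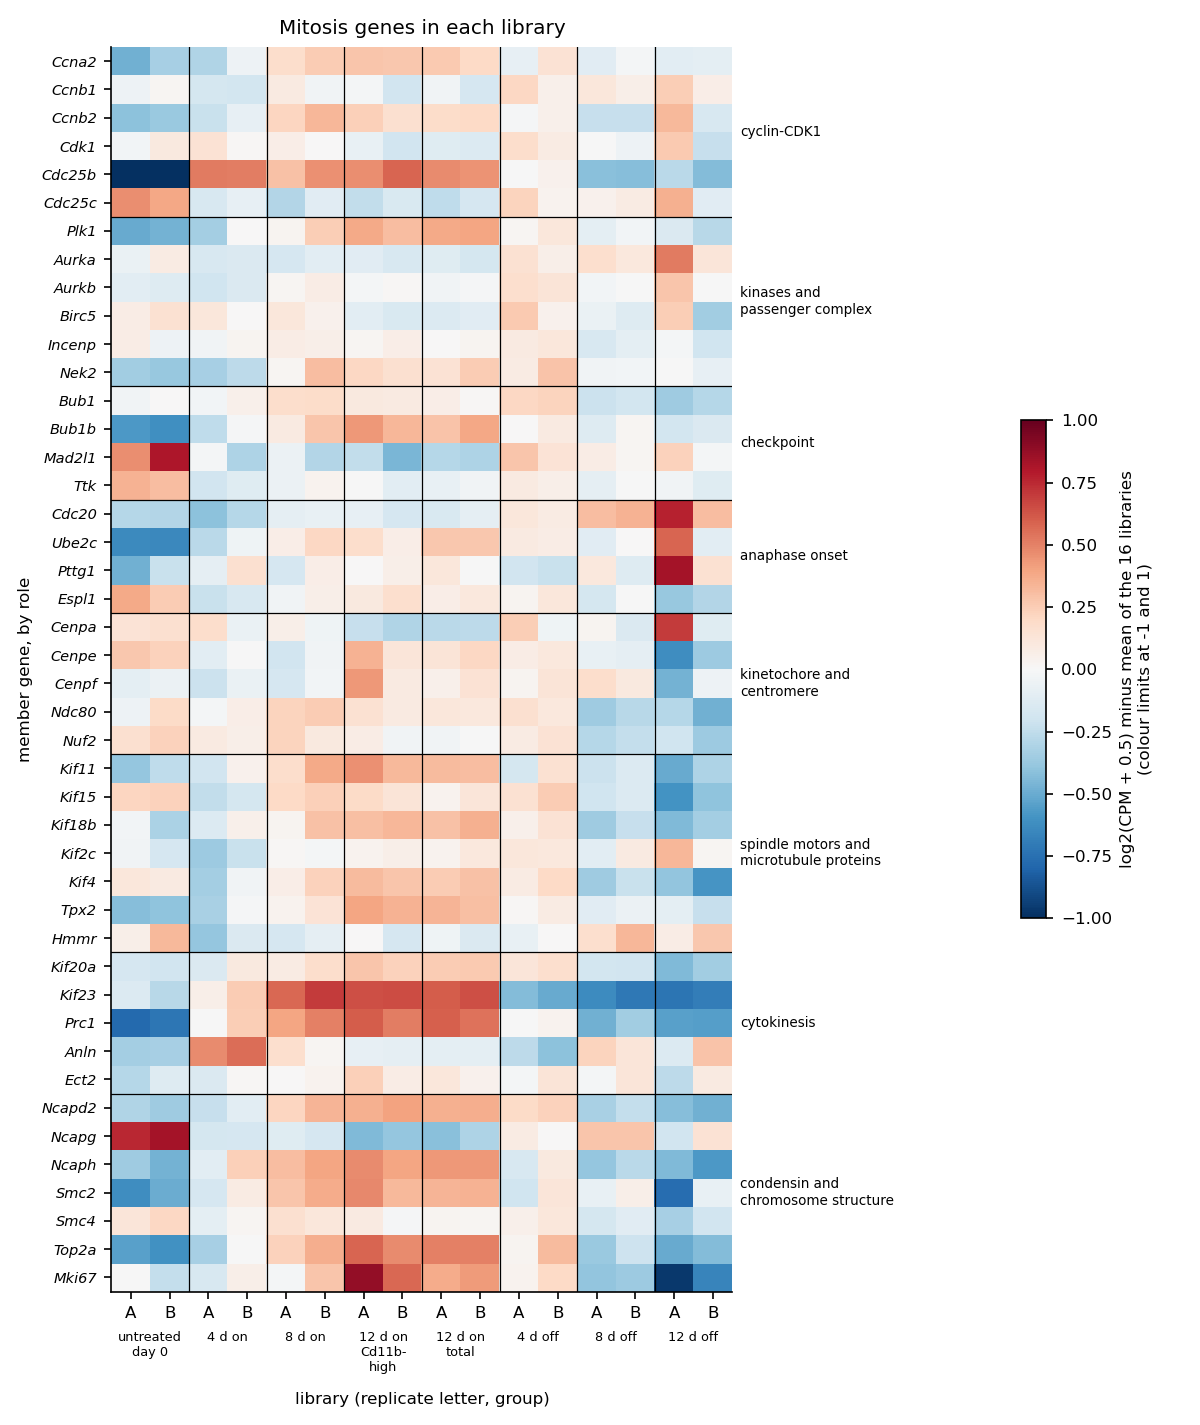
Level of each member (rows, by role) in each of the 16 libraries (columns, by group), as log2(CPM + 0.5) minus the gene's mean over the libraries, with colours capped at -1 and 1. Cdc25b, Prc1, Top2a and Kif23 are high at 8 and 12 days on, Ncapg and Mad2l1 are high untreated, and the replicates of 12 days off differ in colour more than those of other groups.

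After 12 days on doxycycline, 18 members were higher and 5 lower than in untreated cells, and 21 did not pass. Of all genes 63.4% were called in this comparison, 30.0% higher and 33.4% lower, while of the members 52.3% were called, 40.9% higher and 11.4% lower. The median log2 fold was 0.17 over the members and -0.07 over all genes. Spearman's rho of the log2 fold with gene length was 0.13 over the members and 0.31 over all genes averaging 10 CPM or more. Against untreated it was 0.02 and 0.30 at 4 days on, and 0.03 and 0.28 at 8 days on. These rho values are descriptions over genes, and the part of gene length in the result was not tested. The members that rose were Cdc25b, Prc1, Top2a, Bub1b, Ube2c, Smc2, Plk1, Ncaph, Kif23, Tpx2, Ncapd2, Ccna2, Kif11, Ccnb2, Nek2, Mki67, Kif18b and Kif20a. Those that fell were Ncapg, Mad2l1, Cdc25c, Ttk and Espl1. With library size alone in place of TMM, which moved the median of all genes by over 0.1 to -0.20, 18 were higher and 12 lower. With the 4 libraries of the comparison alone, 25 members were higher and 8 lower. Over all genes that setting called 9530 (4797 higher, 4733 lower), against 8654 in the main fit. Markers of other blood cells moved as well. The neutrophil list summed to 763 and 747 CPM after 12 days on, against 33.3 and 42.7 untreated, with 9 of 9 measured genes higher, the eosinophil list to 7954 and 8892 against 5173 and 2077 with 5 of 6 higher, and the macrophage and monocyte list to 1765 and 1790 against 1284 and 1404 with 4 of 5 higher. The leukaemic progenitor list summed to 536 and 521 CPM against 1012 and 1101, with 2 of 5 higher and 3 lower. Mitochondrial genes took 2.01% and 2.12% of reads, against 7.36% and 6.35%. The part of these shifts in the result was not tested.

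At 12 days after withdrawal, 8 members were higher and 24 lower than at 12 days on (72.7% called), against 65.3% of all genes, 32.9% higher and 32.4% lower. The median log2 fold was -0.31 over the members and 0.00 over all genes. Without replicate A of 12 days off, 5 were higher and 25 lower, and of the 32 first called, 3 of the 8 higher and 22 of the 24 lower kept their call. Ccnb2 (-0.35), Nek2 (-0.29) and Ube2c (-0.37) were then called lower, and Hmmr (0.37) and Anln (0.38) higher, by log2 folds. Without replicate B, 12 were higher and 24 lower, with Cdk1 (0.42), Aurkb (0.34), Birc5 (0.40), Ube2c (0.34) and Kif2c (0.30) newly called higher and Ect2 (-0.31) lower. Spearman's rho of the log2 fold with gene length was -0.55 over the members and -0.41 over all genes, and still -0.34 and -0.24 without replicate A, as descriptions over genes. With library size alone 10 were higher and 20 lower. Ccna2, Cenpf, Nuf2 and Smc4 then lost their calls (log2 folds -0.231, -0.237, -0.156 and -0.175). With the 4 libraries of the comparison alone, 1 was higher and 18 lower, and Ccna2, Cenpf, Nuf2 and Smc4 were again not called. Over all genes that setting called 6001 (3136 higher, 2865 lower), against 8917 in the main fit. The neutrophil list summed to 33.8 and 39.1 CPM at 12 days off, against 763 and 747 at 12 days on, with 9 of 9 lower, and the eosinophil list to 4204 and 4284 against 7954 and 8892 with 5 of 6 lower. The macrophage and monocyte list summed to 1435 and 1231 against 1765 and 1790 CPM, with 4 of 5 lower. Their part in the result was not tested.

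Set against untreated cells, 10 members were higher and 13 lower at 12 days off (52.3% called), against 43.6% of all genes, 21.6% higher and 22.0% lower. The median log2 fold was -0.05 over the members and 0.00 over all genes. Without replicate A of 12 days off 9 were higher and 16 lower, with 20 of the 23 first calls kept. Cdk1 (-0.26), Cdc25c (-0.55) and Birc5 (-0.46) were then called lower, and Ect2 (0.29) and Smc2 (0.48) higher. Without replicate B 18 were higher and 13 lower, with Ccnb1, Cdk1, Plk1, Aurkb, Cenpa, Kif2c, Tpx2 and Prc1 newly called higher (log2 folds 0.29 to 0.63) and Cenpf lower (-0.32). Spearman's rho of the log2 fold with length was -0.46 over the members, or -0.19 without replicate A. With library size alone 8 were higher and 14 lower, and Ccna2 and Aurka lost their calls (log2 folds 0.272 and 0.293). With the 4 libraries alone, 3 were higher and 5 lower. Over all genes that setting called 2160 (989 higher, 1171 lower), against 5950 in the main fit. This comparison shares its libraries with both comparisons above, so the values of a gene in them are not independent. The neutrophil list summed to 33.8 and 39.1 CPM at 12 days off, against 33.3 and 42.7 untreated, with 1 of 9 higher and 2 lower, and the leukaemic progenitor list to 581 and 739 against 1012 and 1101, with 0 of 5 higher and 3 lower. The part of these in the result was not tested.

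**Figure D3:**
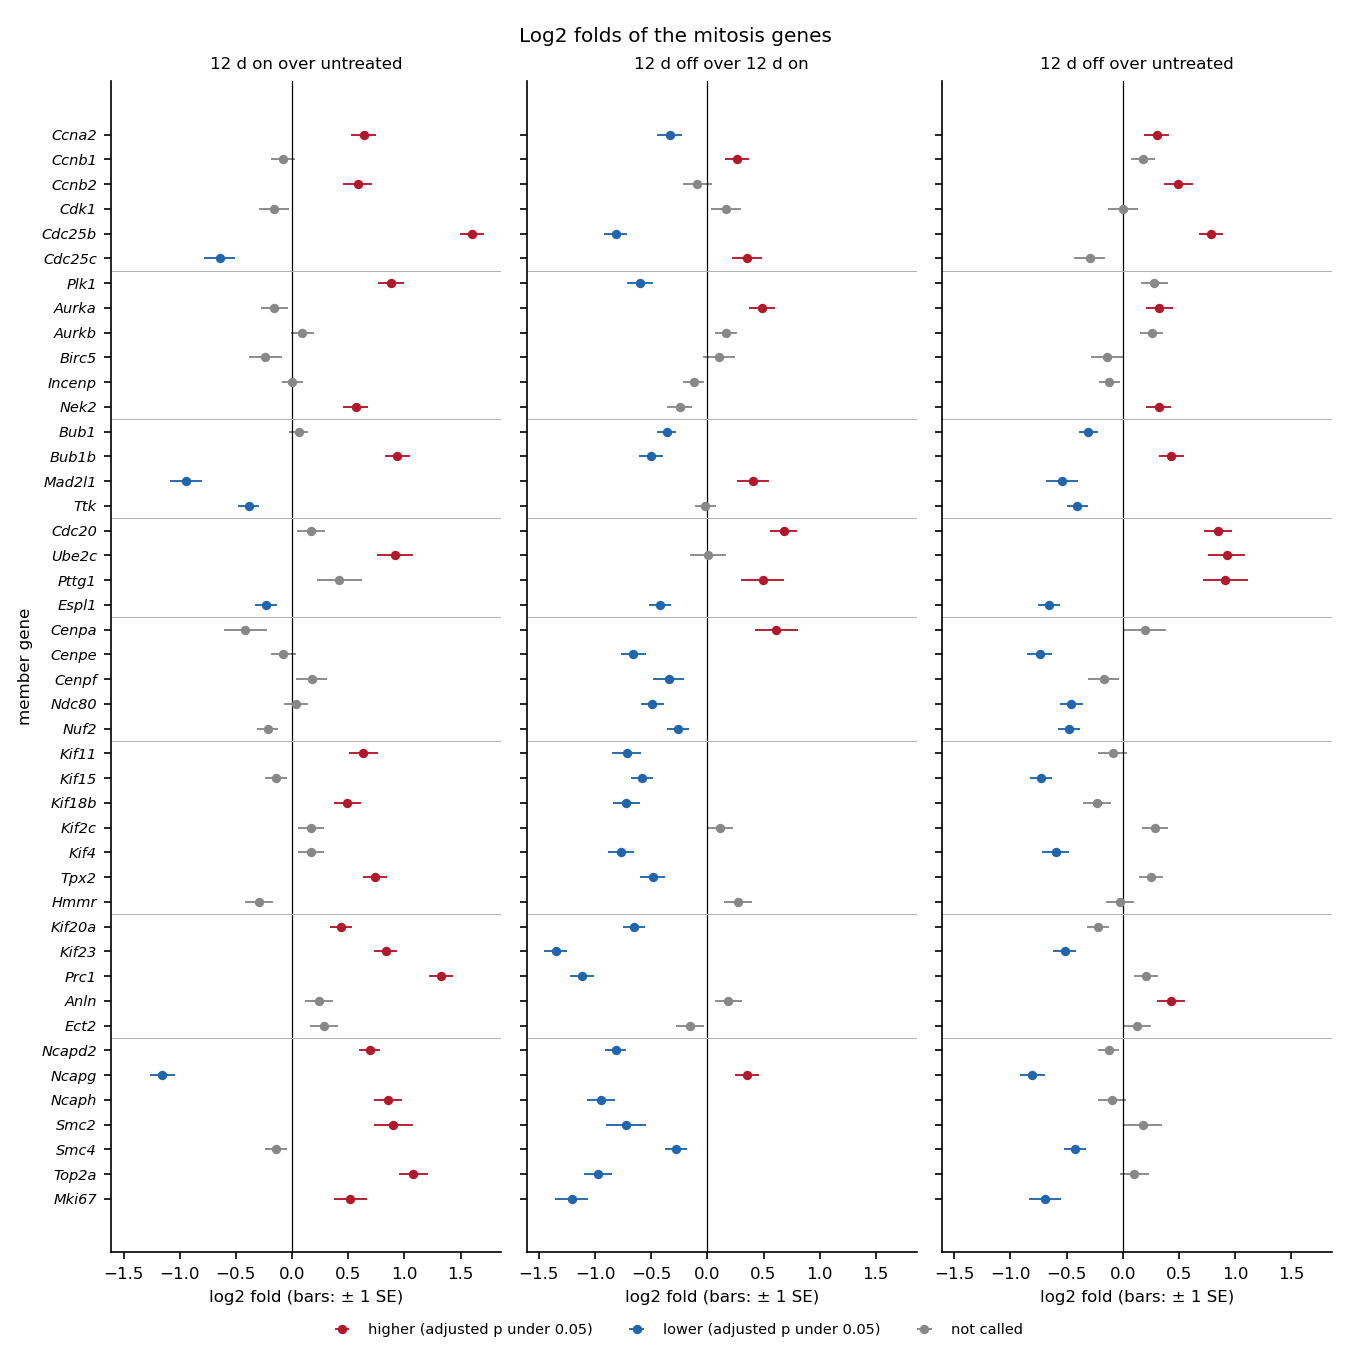
Log2 folds of the 44 members (rows, by role) with bars of 1 SE in 3 comparisons of 2 libraries a group, coloured by the edgeR call. Cdc25b and Prc1 reach the largest positive folds at 12 days on over untreated, and Kif23 and Mki67 the most negative ones at 12 days off over 12 days on.

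Among cyclins and CDK1 activators, the CDC25 phosphatases moved in opposite directions on doxycycline while Cdk1 and cyclin B1 did not pass. Of the 6 genes, 3 were higher and 1 lower at 12 days on against untreated, 2 were higher and 2 lower at 12 days off against 12 days on, and 3 were higher and 0 lower at 12 days off against untreated. In these comparisons 63.4% (30.0% higher, 33.4% lower), 65.3% (32.9%, 32.4%) and 43.6% (21.6%, 22.0%) of all genes were called. Those shares are the background for the counts of each role below, which are small and were not tested against them. Cdc25b was at 22.5 and 20.3 CPM in the untreated libraries, 67.9 and 67.5 after 4 days on, 57.9 and 64.9 after 8 and 65.4 and 64.6 after 12. It was at 46.9 and 48.6 CPM after 4 days off, 35.2 and 34.9 after 8 and 39.0 and 34.8 after 12. Its groups on doxycycline do not overlap with the untreated one, and 12 days on was 3.03-fold above it (log2 fold 1.60, SE 0.11, edgeR adjusted p = 1.2e-08). Cdc25b was lower at 12 days off than at 12 days on (log2 fold -0.82, SE 0.10, edgeR adjusted p = 5.8e-06) and still above untreated (log2 fold 0.78, SE 0.11, edgeR adjusted p = 4e-05). Cdc25c, the phosphatase that acts on cyclin B1-Cdk1 at mitotic entry, was lower, at 28.3 and 30.1 CPM after 12 days on against 47.0 and 44.3 untreated (log2 fold -0.65, SE 0.14, edgeR adjusted p = 0.00082). Its exons overlap those of Gm3550 on the other strand over 12.7% of their length, and the sources used here do not give whether counting was by strand.

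Ccna2 was at 145 and 161 CPM in the untreated libraries, 165 and 196 after 4 days on, 229 and 242 after 8 and 244 and 234 after 12. It was at 191 and 224 CPM after 4 days off, 188 and 200.4 after 8 and 188 and 189.5 after 12. Ccna2 encodes cyclin A2, the partner of CDK2 and CDK1, and was higher at 12 days on (log2 fold 0.64, SE 0.11, edgeR adjusted p = 0.00015). Exosc9, on the other strand, overlaps 12.5% of its exons and fell at 12 days on (log2 fold -0.32). Ccnb1 was at 59.5 and 62.5 CPM in the untreated libraries, 54.5 and 54.2 after 4 days on, 65.6 and 60.1 after 8 and 60.1 and 55.0 after 12. It was at 71.3 and 64.1 CPM after 4 days off, 66.8 and 64.4 after 8 and 73.3 and 64.6 after 12. Its libraries at 12 days on overlap with the untreated ones (log2 fold -0.09, SE 0.11, edgeR adjusted p = 0.5). Cdk1 was at 276 and 300.3 CPM in the untreated libraries, 311 and 284 after 4 days on, 294 and 282 after 8 and 258 and 256 after 12. It was at 318 and 298 CPM after 4 days off, 280.0 and 271 after 8 and 337 and 240.3 after 12. Cdk1 encodes the kinase itself, and its values at 12 days on were lower in both libraries than in the untreated ones, with no call (log2 fold -0.16, SE 0.13, edgeR adjusted p = 0.29). Ccnb2, the other B-type cyclin, averaged 153 CPM at 12 days on against 102 untreated (log2 fold 0.58, SE 0.13, edgeR adjusted p = 0.0011). Ccnb1 and Ccnb2 have pseudogenes whose reads the counting may share, of which Ccnb1-ps averaged 8.44 CPM at 12 days on against 7.95 untreated. Against 12 days on, Ccnb1 and Cdc25c were called higher at 12 days off and Ccna2 lower (log2 folds 0.26, 0.35 and -0.34). Ccnb1 was not called without replicate A or B of 12 days on, or replicate A of 12 days off (log2 folds 0.17 to 0.33, adjusted p = 0.059 to 0.24), and Cdc25c was not called without replicate A or B of 12 days on, or replicate A of 12 days off (log2 folds 0.10 to 0.40, adjusted p = 0.076 to 0.48). Ccna2 was not called without replicate A of 12 days on (log2 fold -0.31, adjusted p = 0.086). Against untreated, Ccna2 and Ccnb2 were higher at 12 days off (log2 folds 0.30 and 0.49), but Ccna2 was not called without untreated replicate A (log2 fold 0.23, adjusted p = 0.21) and Ccnb2 was not called without replicate A of 12 days off (log2 fold 0.23, adjusted p = 0.057). Cdk1 had a log2 fold of 0.00 in that comparison and was called lower without replicate A of 12 days off (-0.26, edgeR adjusted p = 0.048) and higher without replicate B (0.30, edgeR adjusted p = 0.016).

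Of the mitotic kinases, Plk1 and Nek2 rose on doxycycline, while the 4 other genes of the group did not pass. At 12 days on 2 of 6 were higher and 0 lower, at 12 days off 1 was higher and 1 lower than at 12 days on, and 2 were higher and 0 lower than untreated. Plk1 was at 61.5 and 62.9 CPM in the untreated libraries, 68.9 and 87.9 after 4 days on, 89.0 and 104 after 8 and 114 and 115 after 12. It was at 88.5 and 94.8 CPM after 4 days off, 81.8 and 85.9 after 8 and 79.0 and 72.2 after 12. Plk1 encodes the polo-like kinase of mitotic entry and spindle assembly. Its libraries at 8 and 12 days on all lie above the untreated ones (log2 fold 0.88, SE 0.12, edgeR adjusted p = 1.5e-05 at 12 days on), and those of 12 days off lie between untreated and 12 days on (log2 fold -0.60, SE 0.12, edgeR adjusted p = 0.0004 against 12 days on). Against untreated, Plk1 was not called at 12 days off (log2 fold 0.28, edgeR adjusted p = 0.069). Nek2 was at 50.01 and 48.8 CPM in the untreated libraries, 50.5 and 52.9 after 4 days on, 64.6 and 79.0 after 8 and 70.5 and 75.8 after 12. It was at 67.5 and 77.5 CPM after 4 days off, 62.1 and 62.5 after 8 and 63.5 and 59.9 after 12. Nek2, a centrosome kinase, was higher at 12 days on (log2 fold 0.57, SE 0.11, edgeR adjusted p = 0.00039) and at 12 days off against untreated (log2 fold 0.32, SE 0.11, edgeR adjusted p = 0.029), with the call against untreated lost without untreated replicate A or B, or replicate A of 12 days off (log2 folds 0.28 to 0.34, adjusted p = 0.062 to 0.11). Aurkb was at 139.5 and 137 CPM in the untreated libraries, 130.4 and 136 after 4 days on, 152 and 157 after 8 and 146 and 149 after 12. It was at 168 and 164 CPM after 4 days off, 147 and 149 after 8 and 182 and 149 after 12. Aurkb is the kinase of the chromosomal passenger complex, with Incenp and Birc5 (survivin) as its partners. At 12 days on the log2 folds against untreated were 0.09 for Aurkb, 0.00 for Incenp and -0.24 for Birc5, none called (edgeR adjusted p = 0.44, 0.98 and 0.17). Aurka, the spindle-pole Aurora kinase, averaged 77.2 CPM at 12 days off against 55.1 at 12 days on (log2 fold 0.48, SE 0.12, edgeR adjusted p = 0.0022), and 0.48 became 0.27 without replicate A of 12 days off. Against untreated its log2 fold of 0.33 was not called without untreated replicate A or B, or replicate A of 12 days off (log2 folds 0.11 to 0.40, adjusted p = 0.051 to 0.37).

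The 4 checkpoint genes split, with Bub1b higher and Mad2l1 and Ttk lower on doxycycline. Bub1b encodes BubR1 and Mad2l1 encodes Mad2, both parts of the mitotic checkpoint complex that binds Cdc20. Bub1b was at 63.2 and 61.4 CPM in the untreated libraries, 79.0 and 93.6 after 4 days on, 101 and 114 after 8 and 115 and 123 after 12. It was at 94.7 and 100.5 CPM after 4 days off, 86.3 and 95.6 after 8 and 83.1 and 85.2 after 12. At 12 days on it was 1.91-fold above untreated (log2 fold 0.94, SE 0.11, edgeR adjusted p = 3.6e-06), and at 12 days off it was below 12 days on (log2 fold -0.50, SE 0.11, edgeR adjusted p = 0.00085) and above untreated (log2 fold 0.43, SE 0.11, edgeR adjusted p = 0.0052). Mad2l1 was at 184 and 234 CPM in the untreated libraries, 131 and 107 after 4 days on, 128 and 108 after 8 and 109 and 107 after 12. It was at 161 and 146 CPM after 4 days off, 139.7 and 135 after 8 and 156 and 131 after 12. Every library on doxycycline was below both untreated ones (log2 fold -0.95, SE 0.14, edgeR adjusted p = 3.9e-05 at 12 days on). Mad2l1 at 12 days off was above 12 days on (log2 fold 0.41, SE 0.14, edgeR adjusted p = 0.02) and below untreated (log2 fold -0.54, SE 0.14, edgeR adjusted p = 0.0063). The call against 12 days on was lost without replicate A or B of 12 days on, or replicate A of 12 days off (log2 folds 0.28 to 0.42, adjusted p = 0.073 to 0.11), and the call against untreated without untreated replicate B or replicate B of 12 days off (log2 folds -0.34 to -0.36, adjusted p = 0.059 to 0.096). Ttk, the Mps1 kinase that starts checkpoint signalling, averaged 59.7 CPM at 12 days on and 58.9 at 12 days off, against 78.0 untreated (log2 folds -0.39 and -0.41, both called). Bub1, the kinase that docks the checkpoint on kinetochores, did not pass at 12 days on (0.06) and was lower at 12 days off against 12 days on (-0.36) and against untreated (-0.31).

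Genes of anaphase onset included Cdc20, which was higher at 12 days off than at 12 days on and than untreated. Cdc20 was at 118 and 117 CPM in the untreated libraries, 108 and 118 after 4 days on, 135 and 137 after 8 and 129 and 135 after 12. It was at 156 and 152 CPM after 4 days off, 178 and 183 after 8 and 246 and 178 after 12. Cdc20 activates the APC/C. It did not pass at 12 days on against untreated (log2 fold 0.17, SE 0.12, edgeR adjusted p = 0.24), while at 12 days off it was higher than at 12 days on (log2 fold 0.68, SE 0.12, edgeR adjusted p = 0.00021) and than untreated (log2 fold 0.85, SE 0.12, edgeR adjusted p = 8.2e-05). Replicate A of 12 days off is the highest library. Without it the log2 folds were 0.43 and 0.60, both still called. Against 8 days off it was not called at 12 days off (0.23, edgeR adjusted p = 0.24, or -0.02 without replicate A). Ube2c, the E2 enzyme of the APC/C, was higher at 12 days on (106 and 106 CPM against 56.4 and 56.1 untreated, log2 fold 0.92). Its libraries of 12 days off stood at 132 and 81.9 CPM, with a log2 fold against 12 days on of 0.01 that turned to -0.37 without replicate A (edgeR adjusted p = 0.006) and 0.34 without replicate B (edgeR adjusted p = 0.0075). Against untreated it was higher (0.93, or 0.54 without replicate A). Tnnc2, on the other strand, overlaps 22.8% of its exons. Pttg1, securin, was at 26.2 and 16.1 CPM at 12 days off against 15.7 and 14.4 at 12 days on (log2 fold 0.49), a call lost without replicate A or B of 12 days on, or replicate A of 12 days off (log2 folds 0.10 to 0.56, adjusted p = 0.073 to 0.59). Against 10.2 and 12.3 CPM untreated it was higher (0.91, or 0.53 without replicate A). Espl1 encodes separase, the protease that opens cohesin. Espl1 was at 174 and 159 CPM in the untreated libraries, 114 and 119 after 4 days on, 130.5 and 139 after 8 and 140.3 and 144 after 12. It was at 136 and 144 CPM after 4 days off, 118 and 133 after 8 and 102 and 109 after 12. It was lower at 12 days off than at 12 days on (log2 fold -0.42, SE 0.10, edgeR adjusted p = 0.0015) and than untreated (log2 fold -0.66, SE 0.10, edgeR adjusted p = 9.8e-05). Its call at 12 days on against untreated (log2 fold -0.23, SE 0.10, edgeR adjusted p = 0.049) was lost without untreated replicate A, or replicate A or B of 12 days on (log2 folds -0.17 to -0.25, adjusted p = 0.12 to 0.24), and also with RLE factors, with a filter at a mean of 1 CPM and with DESeq2.

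**Figure D4:**
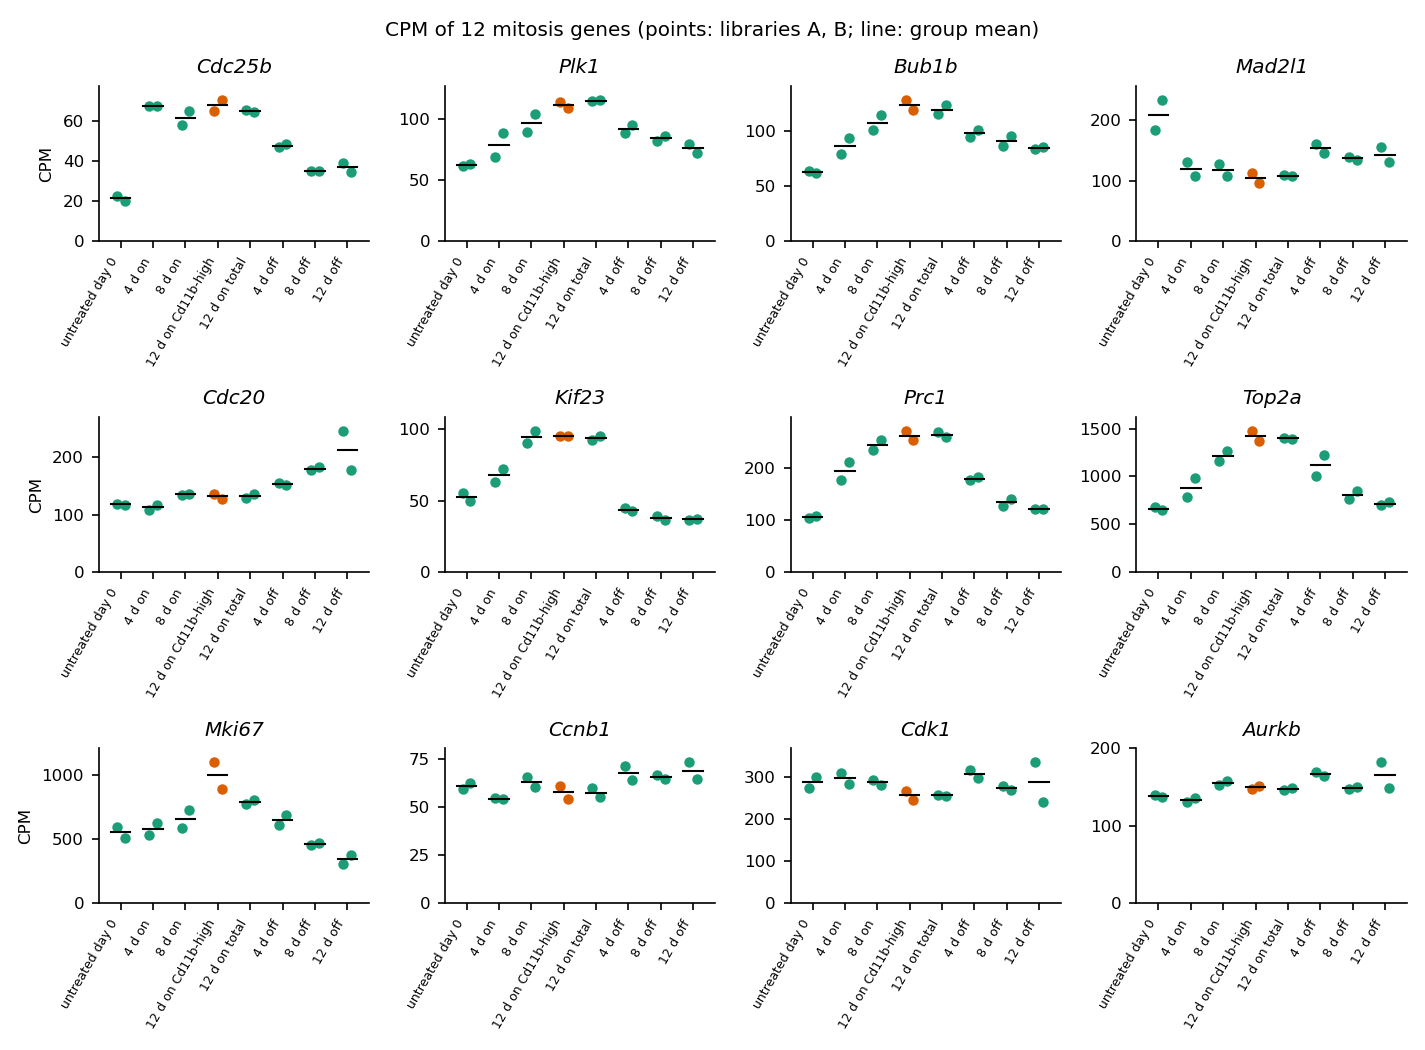
CPM of 12 members in each library (points, A and B) with the mean of each group (bar), over the groups on a linear axis from 0, the Cd11b-high sort in orange. Cdc25b, Prc1, Kif23 and Top2a are highest on doxycycline, Mad2l1 is highest untreated, Cdc20 is highest in replicate A of 12 days off, and Ccnb1, Cdk1 and Aurkb, which did not pass the test over the 8 groups, vary less.

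The 5 kinetochore and centromere genes had no call at 12 days on against untreated by edgeR, DESeq2 or limma-voom, with 2 at an unadjusted p under 0.05 in edgeR and log2 folds from -0.42 (Cenpa) to 0.18 (Cenpf). At 12 days off, 1 of 5 was higher and 4 lower than at 12 days on, and 0 were higher and 3 lower than untreated. Cenpe encodes the kinetochore motor CENP-E that carries chromosomes to the spindle equator. Cenpe was at 155 and 151 CPM in the untreated libraries, 119 and 128 after 4 days on, 113 and 125 after 8 and 140.4 and 149 after 12. It was at 135 and 138 CPM after 4 days off, 122 and 121 after 8 and 83.2 and 99.7 after 12. The 12-days-off libraries are the lowest of the course (log2 fold -0.66, SE 0.11, edgeR adjusted p = 0.00011 against 12 days on). Ndc80 and Nuf2 are subunits of the NDC80 complex, which grips microtubule ends. Ndc80 was at 91.0 and 108 CPM in the untreated libraries, 93.2 and 99.1 after 4 days on, 109.9 and 113 after 8 and 102 and 101 after 12. It was at 106 and 102 CPM after 4 days off, 73.6 and 77.8 after 8 and 77.5 and 67.4 after 12. Both libraries at 8 days off and at 12 days off lie below all libraries on doxycycline. The log2 fold at 12 days off against 12 days on was -0.49 for Ndc80 (SE 0.10) and -0.26 for Nuf2 (SE 0.10), and against untreated -0.46 and -0.48, all called. Nuf2 against 12 days on was not called without replicate A or B of 12 days on, or replicate B of 12 days off (log2 folds -0.15 to -0.28, adjusted p = 0.079 to 0.18). Cenpa, the centromeric histone H3 variant, was higher at 12 days off (407 and 231 CPM against 208 and 209 at 12 days on, log2 fold 0.61) and Cenpf, a corona protein, lower (-0.34). Cenpa was not called without replicate A of 12 days on or replicate A of 12 days off (log2 folds 0.15 to 0.61, adjusted p = 0.0503 to 0.31). Against untreated Cenpa was not called (0.20), but was called higher without replicate B of 12 days off (0.63, edgeR adjusted p = 0.00031). Cenpf was not called without replicate A or B of 12 days on, or replicate A of 12 days off (log2 folds -0.15 to -0.39, adjusted p = 0.074 to 0.32).

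Spindle motors and microtubule proteins rose or did not pass at 12 days on, and 5 of 7 fell at 12 days off. Of 7, 3 were higher and 0 lower at 12 days on, Tpx2, Kif11 and Kif18b. At 12 days off 0 were higher and 5 lower than at 12 days on, and 0 higher and 2 lower than untreated. Tpx2 was at 109 and 111 CPM in the untreated libraries, 117 and 145 after 4 days on, 150.3 and 161 after 8 and 186 and 181 after 12. It was at 148 and 155 CPM after 4 days off, 135 and 141 after 8 and 137 and 125 after 12. Tpx2, the activator of Aurora A on spindle microtubules, was above untreated in both libraries of 12 days on (log2 fold 0.74, SE 0.11, edgeR adjusted p = 3.1e-05) and below 12 days on at 12 days off (log2 fold -0.49, SE 0.11, edgeR adjusted p = 0.001). Kif15 was at 174 and 176 CPM in the untreated libraries, 126 and 132 after 4 days on, 171 and 176 after 8 and 153 and 162 after 12. It was at 166 and 179 CPM after 4 days off, 129.9 and 136 after 8 and 98.4 and 113 after 12. Kif15, a motor that helps hold spindle poles apart, was lower at 4 days on (log2 fold -0.44, SE 0.10, edgeR adjusted p = 0.0013), did not pass at 12 days on (-0.14), and was lower at 12 days off than untreated (log2 fold -0.72, SE 0.10, edgeR adjusted p = 3.7e-05). Kif11, the bipolar-spindle kinesin Eg5, and Kif18b, a microtubule-depolymerising kinesin, had log2 folds of 0.63 and 0.49 at 12 days on and of -0.72 and -0.72 at 12 days off against 12 days on. Kif4, a chromosome-arm kinesin, was lower at 12 days off than at 12 days on (-0.77) and than untreated (-0.60). Pdzd11, on the other strand, overlaps 15.1% of its exons. Kif2c, the depolymerase MCAK, and Hmmr, a spindle-assembly factor, were called neither at 12 days on nor at 12 days off with all libraries in the fit, and their calls without 1 library of 12 days off are given above. Kif2c was also called higher against untreated without replicate B (0.52).

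Among the cytokinesis genes, Kif23 and Prc1 rose on doxycycline and fell after its withdrawal. Of 5, 3 were higher and 0 lower at 12 days on against untreated, 0 higher and 3 lower at 12 days off against 12 days on, and 1 higher and 1 lower at 12 days off against untreated. Kif23 encodes MKLP1, the motor of centralspindlin, which bundles the central spindle and recruits the RhoA activator Ect2. Kif23 was at 55.2 and 50.01 CPM in the untreated libraries, 63.1 and 72.3 after 4 days on, 90.7 and 98.7 after 8 and 92.4 and 95.2 after 12. It was at 44.7 and 42.5 CPM after 4 days off, 39.0 and 36.7 after 8 and 36.3 and 37.3 after 12. All libraries off doxycycline lie below all others. Kif23 was 1.78-fold above untreated at 12 days on (log2 fold 0.83, SE 0.10, edgeR adjusted p = 4.8e-06). It had a log2 fold of -1.10 at 4 days off against 12 days on (SE 0.10, edgeR adjusted p = 1.5e-06) and of -1.35 at 12 days off (SE 0.10, edgeR adjusted p = 3.8e-08), and it ended below untreated (log2 fold -0.52, SE 0.10, edgeR adjusted p = 0.00094). Prc1 was at 103 and 107 CPM in the untreated libraries, 177 and 210.3 after 4 days on, 234 and 253 after 8 and 268 and 259 after 12. It was at 177 and 182 CPM after 4 days off, 127 and 139.7 after 8 and 122 and 121 after 12. Prc1, which cross-links central spindle microtubules, was 2.50-fold above untreated at 12 days on (log2 fold 1.32, SE 0.11, edgeR adjusted p = 7.5e-08) and lower at 12 days off (log2 fold -1.12, SE 0.10, edgeR adjusted p = 3.4e-07), where it did not pass against untreated (0.21). Rccd1, on the other strand, overlaps 11.1% of the exons of Prc1 and moved the other way at 12 days on (log2 fold -1.22). Anln encodes anillin, the scaffold of the contractile ring. Anln was at 111 and 111 CPM in the untreated libraries, 196 and 208 after 4 days on, 158 and 142 after 8 and 131 and 131 after 12. It was at 117 and 106 CPM after 4 days off, 164 and 153 after 8 and 128 and 171 after 12. Its highest libraries are those of 4 days on (log2 fold 0.86, SE 0.12, edgeR adjusted p = 2.8e-05), and by 12 days on it did not pass (0.24, edgeR adjusted p = 0.098). It was above untreated at 12 days off (0.43), a call lost without untreated replicate A (log2 fold 0.42, adjusted p = 0.059). Kif20a, the motor that carries the passenger complex to the midzone, was higher at 12 days on (0.44) and lower at 12 days off against 12 days on (-0.66). Cdc23 overlaps 29.3% of its exons on the other strand. Ect2 itself did not pass at 12 days on (0.29, edgeR adjusted p = 0.056) or at 12 days off against 12 days on (-0.16).

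The subunits of condensin I, which act as 1 complex in mitosis, did not move together. Ncapd2, Ncaph and Smc2 were higher at 12 days on against untreated, Ncapg was lower, and Smc4 did not pass. Ncapg was at 251 and 265 CPM in the untreated libraries, 132 and 132 after 4 days on, 137 and 133 after 8 and 111 and 120.1 after 12. It was at 157 and 149 CPM after 4 days off, 179.9 and 179.9 after 8 and 130.4 and 165 after 12. Every library on doxycycline was below both untreated ones (log2 fold -1.16, SE 0.11, edgeR adjusted p = 4.5e-07 at 12 days on). Ncapg at 12 days off was above 12 days on (log2 fold 0.35, SE 0.11, edgeR adjusted p = 0.011), a call lost without replicate A of 12 days on or replicate B of 12 days off (log2 folds 0.20 to 0.30, adjusted p = 0.059 to 0.094), and below untreated (log2 fold -0.80, SE 0.11, edgeR adjusted p = 4.1e-05). Lcorl, on the other strand, overlaps 13.4% of the exons of Ncapg and averaged 30.3 CPM at 12 days on against 57.5 untreated, and in that shared stretch reads of the pair cannot be told apart if counting ignored strand. Ncapd2 was at 345 and 332 CPM in the untreated libraries, 362 and 395 after 4 days on, 494 and 539 after 8 and 545 and 547 after 12. It was at 487 and 500.4 CPM after 4 days off, 339.6 and 360.5 after 8 and 316 and 305 after 12. It was above untreated at 12 days on (log2 fold 0.69, SE 0.09, edgeR adjusted p = 1.6e-05) and below 12 days on at 12 days off (log2 fold -0.82, SE 0.09, edgeR adjusted p = 2.8e-06). Ncaph, the kleisin subunit, was at 100.1 and 100.1 CPM at 12 days on against 57.7 and 53.2 untreated (log2 fold 0.85, SE 0.12, edgeR adjusted p = 3e-05) and at 54.4 and 49.6 CPM at 12 days off (log2 fold -0.94, SE 0.12, edgeR adjusted p = 1e-05 against 12 days on). Smc2, an ATPase subunit, was at 396 and 398 CPM at 12 days on against 203 and 222 untreated (log2 fold 0.90, SE 0.18, edgeR adjusted p = 0.0004). Its libraries of 12 days off stood at 184 and 297 CPM, with replicate A the lower, and its log2 fold against 12 days on was -0.72, or -0.42 without replicate A. Against untreated it was not called (0.18), but was called higher without replicate A (0.48, edgeR adjusted p = 0.0071). Smc4, its ATPase partner, was at 777 and 776 CPM at 12 days on against 830.1 and 884 untreated (log2 fold -0.14, SE 0.10, edgeR adjusted p = 0.21), and its lower level at 12 days off against 12 days on (-0.28) was not called without replicate A or B of 12 days on, or replicate A of 12 days off (log2 folds -0.21 to -0.28, adjusted p = 0.077 to 0.085). Over the 7 genes of condensin and chromosome structure, 5 were higher and 1 lower at 12 days on, 1 was higher and 6 lower at 12 days off against 12 days on, and 0 were higher and 3 lower at 12 days off against untreated. Of all genes, 63.4%, 65.3% and 43.6% were called in these comparisons.

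**Figure D5:**
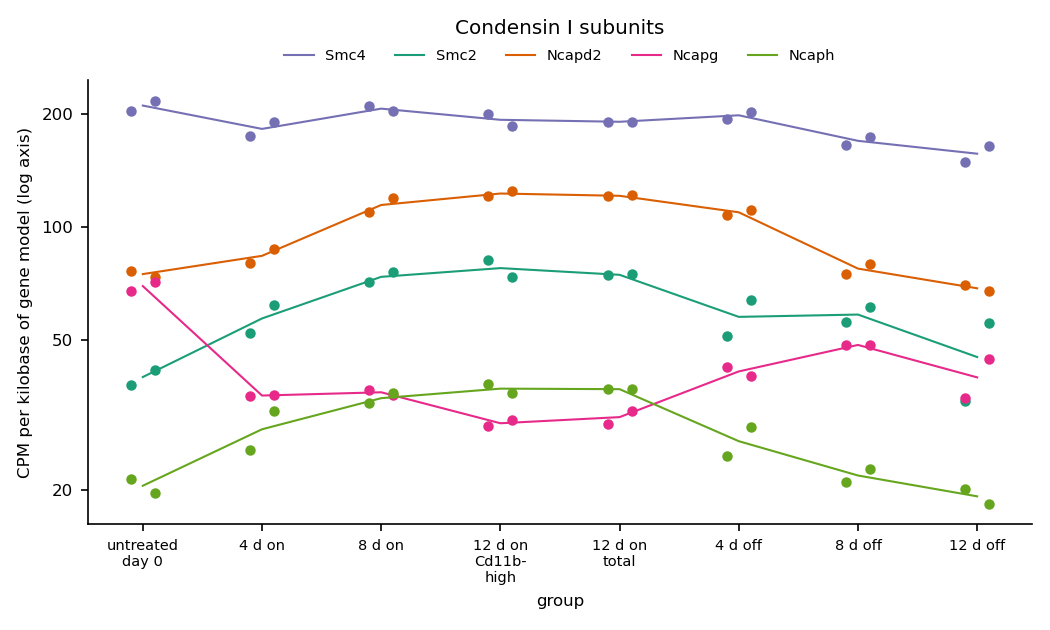
CPM per kilobase of gene length (log axis) of the 5 condensin I subunits in each library (points) over the groups, with lines through group means. Ncapd2, Ncaph and Smc2 run upward to 12 days on and Ncapg runs downward, while Smc4 shows little change there.

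The abundant chromosome proteins Top2a and Mki67 were higher at 12 days on and lower at 12 days off. Top2a was at 677 and 649 CPM in the untreated libraries, 782 and 982 after 4 days on, 1157 and 1266 after 8 and 1401 and 1397 after 12. It was at 1005 and 1227 CPM after 4 days off, 762 and 853 after 8 and 696 and 729 after 12. Top2a, the topoisomerase that untangles sister chromatids, was 2.11-fold above untreated at 12 days on (log2 fold 1.08, SE 0.13, edgeR adjusted p = 4e-06), lower at 12 days off (log2 fold -0.97, SE 0.13, edgeR adjusted p = 1e-05), and not called there against untreated (0.10). Mki67 was at 596 and 506 CPM in the untreated libraries, 534 and 622 after 4 days on, 588 and 722 after 8 and 774 and 804 after 12. It was at 612 and 685 CPM after 4 days off, 454 and 465 after 8 and 305 and 377 after 12. Mki67 encodes Ki-67, the coat protein of mitotic chromosomes and a proliferation marker. It was above untreated at 12 days on (log2 fold 0.52, SE 0.14, edgeR adjusted p = 0.0057), a call lost without untreated replicate B (log2 fold 0.41, adjusted p = 0.07). It was below 12 days on at 12 days off (log2 fold -1.21, SE 0.15, edgeR adjusted p = 4.5e-06) and below untreated (log2 fold -0.69, SE 0.14, edgeR adjusted p = 0.0015). Without replicate A of 12 days off those log2 folds were -1.06 and -0.55, both called.

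The earlier times on doxycycline showed when the members moved. At 4 days 10 were higher and 9 lower than untreated (43.2% called), against 59.2% of all genes, 28.2% higher and 31.0% lower. With RLE factors these were 12 and 7, and without untreated replicate B 11 members in all were called. At 8 days 18 were higher and 7 lower (56.8%), against 57.3% of all genes, 27.0% higher and 30.2% lower. Between 8 and 4 days, 8 were higher and 1 lower at 8 days (20.5%), against 13.9% of all genes, 6.78% higher and 7.16% lower. These were Ccna2, Ccnb2, Nek2, Kif15, Kif23, Prc1, Ncapd2 and Top2a, with log2 folds from 0.33 (Prc1) to 0.48 (Kif23), and Anln, lower (-0.43). Without replicate A of 4 days or replicate B of 8 days that count was 0, and without replicate A of 8 days it was 4. Between 12 and 8 days no member was called by edgeR, DESeq2 or limma-voom, with 2 at an unadjusted p under 0.05 and 2.24% of all genes called (1.82% higher, 0.425% lower). With the 4 libraries alone 13 members were called (6 higher, 7 lower). Over all genes that setting called 3402 (1825 higher, 1577 lower), against 306 in the main fit. Cdc25b, Cdc25c, Mad2l1 and Ncapg were among the members called in the same direction at 4 and 12 days. Their log2 folds against untreated were 1.66, -0.56, -0.80 and -0.96 at 4 days and 1.60, -0.65, -0.95 and -1.16 at 12. Plk1, Bub1b, Ube2c, Kif23, Prc1, Ncaph, Smc2 and Top2a were also called higher at both times, and Ttk and Espl1 lower. At 4 days the calls of Plk1, Ube2c, Kif23, Smc2 and Top2a were lost when certain single libraries were left out. Kif15 and Kif4 were lower at 4 days (-0.44 and -0.28) and not called at 8 or 12. Kif4 was not called at 4 days when untreated replicate A or B or replicate A of 4 days was left out (log2 folds -0.08 to -0.29, edgeR adjusted p = 0.1 to 0.65), nor with RLE factors, with a filter at a mean of 1 CPM, with DESeq2 or with the 4 libraries alone. At 4 days the neutrophil list summed to 2904 and 2281 CPM, above its 12-day level, and its part in the result was not tested.

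After withdrawal 8 members were called at 4 days and 25 at 8 days against 12 days on. At 4 days off 2 were higher, Mad2l1 (0.51) and Ncapg (0.40), and 6 lower than at 12 days on, Kif23 (-1.10), Prc1 (-0.56), Ncaph (-0.46), Cdc25b (-0.45), Plk1 (-0.32) and Bub1b (-0.29). The calls of Plk1 and Bub1b were lost with library size alone and without each of the 4 libraries in turn (log2 folds -0.17 to -0.37, edgeR adjusted p = 0.07 to 0.24). Those of Ncapg and Ncaph were lost without replicate A of 12 days on or of 4 days off, and that of Mad2l1 without these or replicate B of 12 days on. Kif23, Prc1 and Cdc25b kept theirs under the 12 alternatives run. In all, 18.2% of the members were called at 4 days off, against 36.8% of all genes, 18% higher and 18.8% lower. With library size alone, which moved the median of all genes to 0.15 against 0.04, the split turned to 13 higher and 4 lower, and without replicate A of 12 days on or of 4 days off 3 members were called, and without replicate B of 12 days on 5. With the 4 libraries alone 8 were higher and 14 lower. Over all genes that setting called 6524 (3131 higher, 3393 lower), against 5029 in the main fit. At 8 days off 5 were higher and 20 lower than at 12 days on (56.8%), against 55.9% of all genes, 28.7% higher and 27.2% lower, or 8 and 15 with library size alone and 16 in all without replicate B of 12 days on. Between 8 and 4 days off, 1 was higher and 12 lower at 8 days (29.5%), against 24.0% of all genes, 11.6% higher and 12.4% lower, and 3 in all were called without replicate A of 8 days off, 8 without its replicate B and 4 without replicate B of 4 days off. The member that was higher was Anln (0.50), and the lowest log2 folds were those of Mki67 (-0.50) and Ncapd2 (-0.50). Between 12 and 8 days off edgeR called no member, with 10 at an unadjusted p under 0.05 (3 higher, 7 lower) and 3.71% of all genes called (1.54% higher, 2.18% lower), while DESeq2 called 2 lower and limma-voom 1 lower. The edgeR count of members, like that of all genes, depended on which library of 12 days off was kept. Without replicate B of 12 days off the median log2 fold was -0.032 over the members and 0.021 over all genes. Without replicate A these medians were -0.083 and 0. Across the members, Spearman's rho of that log2 fold with gene length was -0.83, or -0.40 without replicate A, as a description over genes.

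Early after withdrawal more members were called above untreated cells than below. At 4 days off 16 were higher and 4 lower than untreated (45.5%), against 37.9% of all genes, 18.8% higher and 19.1% lower, and 10 in all were called without replicate B of 4 days off and 12 without untreated replicate A or B. At 8 days off 11 were higher and 12 lower (52.3%), against 33.1% of all genes, 16.2% higher and 16.9% lower, and 11 in all without replicate A of 8 days off, 13 without its replicate B and 12 without untreated replicate A or B. Top2a had log2 folds of 0.75, 0.28 and 0.10 at 4, 8 and 12 days off against untreated, of which the first was called. Prc1 had 0.77, 0.34 and 0.21, Cdc25b 1.16, 0.71 and 0.78, and Ncapg -0.75, -0.52 and -0.80. These comparisons share the untreated libraries. The neutrophil list summed to 434 and 471 CPM at 4 days off and 60.5 and 76.9 at 8, against 33.3 and 42.7 untreated, and its part in the result was not tested.

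Cd11b-high cells sorted at day 12 were compared with total cells of that day, a sample that holds them too. No member was called (edgeR, DESeq2 and limma-voom), with 1 at an unadjusted p under 0.05 and 0.0146% of all genes called. The member with the largest log2 fold was Mki67, at 1099 and 891 CPM in Cd11b-high cells against 774 and 804 in total cells (log2 fold 0.34, SE 0.14, edgeR adjusted p = 1). Its libraries do not overlap between the groups, though the sorted ones lie further apart. Mki67 is also among the longest members, with a gene length of 10075 bases, and Spearman's rho of this comparison's log2 fold with length was 0.66 over the members and 0.36 over all genes, whose part in the result was not tested. Top2a was at 1475 and 1368 CPM against 1401 and 1397, Kif23 at 95.1 and 95.3 against 92.4 and 95.2, Ncapg at 109.5 and 114 against 111 and 120.1 and Cdc25b at 65.3 and 70.6 against 65.4 and 64.6, with log2 folds of 0.02, 0.02, -0.05 and 0.06. With a median SE of 0.115 on the log2 scale over members and comparisons, small differences could not be seen with these libraries. The mast cell and basophil list summed to 1399 and 1252 CPM in Cd11b-high cells against 1882 and 1896 in total cells, and the neutrophil list to 962 and 1025 against 763 and 747. The eosinophil list summed to 6610 and 7073 CPM against 7954 and 8892, and the macrophage and monocyte list to 1573 and 1521 against 1765 and 1790. Sums of the leukaemic progenitor list were 582 and 545 against 536 and 521. Of all genes, 2 were called, both lower in Cd11b-high cells, and the part of these lists was not tested.

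Other genes of the same machinery were counted from lists that are not part of the 44. Of all genes, 63.4% were called at 12 days on against untreated (30.0% higher, 33.4% lower) and 65.3% at 12 days off against 12 days on (32.9% higher, 32.4% lower), which is the background for each count. Of 16 transcription factors of the G2/M programme, 9 were higher and 3 lower at 12 days on against untreated (75.0% called), and 1 higher and 10 lower at 12 days off against 12 days on. E2f8, an atypical E2F repressor, averaged 193 CPM at 12 days on and 45.3 at 12 days off, against 62.1 untreated (log2 fold 1.64 at 12 days on, SE 0.17, edgeR adjusted p = 1.1e-06). Rbl2, the pocket protein p130 of DREAM, averaged 162 CPM at 12 days on and 55.7 at 12 days off, against 71.8 untreated (log2 fold 1.17 at 12 days on, SE 0.13, edgeR adjusted p = 2.9e-06). E2f2, an activator E2F, averaged 146 CPM at 12 days on and 66.4 at 12 days off, against 93.5 untreated (log2 fold 0.65 at 12 days on, SE 0.10, edgeR adjusted p = 6.7e-05). Foxm1 and Mybl2, the activators that bind with MuvB at CHR elements and named here after their values were seen, were at log2 folds of -0.68 (edgeR adjusted p = 0.00012) and -0.15 (edgeR adjusted p = 0.29) at 12 days on, with Foxm1 at 121 and 123 CPM against 210.4 and 181 untreated. Of 10 CDK1 antagonists and their regulators, 3 were higher and 5 lower at 12 days on (80.0%), and 2 higher and 3 lower at 12 days off against 12 days on. Bora, the activator of Aurora A towards Plk1, averaged 52.9 CPM at 12 days on and 62.8 at 12 days off, against 120.2 untreated (log2 fold -1.18 at 12 days on, SE 0.10, edgeR adjusted p = 1.2e-07). Pkmyt1, the Myt1 kinase that puts inhibitory phosphates on Cdk1, had a log2 fold of -0.86 at 12 days on, and Arpp19, an inhibitor of PP2A-B55, of 0.87, both called. Of 35 other kinetochore genes, 3 were higher and 20 lower at 12 days on (65.7%), with a median log2 fold of -0.36, and 7 were higher and 13 lower at 12 days off against 12 days on. Cenpi and Cenpn, of the inner kinetochore, were lower (-1.19 and -0.29) and Mad1l1, the Mad2 receptor Mad1, higher (1.20).

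Of 31 other spindle and cytokinesis genes, 13 were higher and 6 lower at 12 days on against untreated (61.3% called), and 5 higher and 16 lower at 12 days off against 12 days on. Ran, the GTPase that sets spindle assembly around chromatin, was lower at 12 days on (-0.75) and higher at 12 days off against 12 days on (1.0), while its exchange factor Rcc1 was higher in both (0.44 and 0.57), and Depdc1b was higher at 12 days on and lower at 12 days off against it (1.23 and -0.99). The 13 cohesin genes encode the ring that holds sister chromatids until separase cuts it, and its loaders and releasers. At 12 days on 10 were higher and 0 lower (76.9% called, median log2 fold 0.74). At 12 days off against 12 days on 0 were higher and 11 lower (median -0.67). The list summed to 1543 CPM in replicate A of 12 days off and 2170 in replicate B, against 3227 and 3218 at 12 days on. In these comparisons the log2 folds of all genes ran with gene length (rho 0.31 and -0.41), whose part in the cohesin counts was not tested. Smc1a, a core ring subunit, averaged 277 CPM at 12 days on and 95.3 at 12 days off, against 115 untreated (log2 fold 1.26 at 12 days on, SE 0.14, edgeR adjusted p = 2.5e-06). Rad21, the cleaved subunit, averaged 714 CPM at 12 days on and 424 at 12 days off, against 377 untreated (log2 fold 0.92 at 12 days on, SE 0.12, edgeR adjusted p = 6.3e-06). Stag1, a ring-binding subunit, averaged 159.7 CPM at 12 days on and 66.3 at 12 days off, against 76.8 untreated (log2 fold 1.06 at 12 days on, SE 0.17, edgeR adjusted p = 7.6e-05). Condensin II shares Smc2 and Smc4 with condensin I. Of its 3 other subunits, Ncapg2 was higher (0.95), Ncaph2 lower (-0.37) and Ncapd3 not called (0.19) at 12 days on. At 12 days off against 12 days on, 1 of these 3 was higher and 2 lower. Beside these, the mast cell and basophil list had 2 of 6 genes higher and 3 lower at 12 days on, the erythroid list 0 of 4 and 2, the T and NK cell list 0 of 3 and 1, and the 1 measured B cell gene was lower at 12 days on, in libraries where it was under 1 CPM. The part of other cells in these counts was not tested.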

How the data were processed

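RNA was measured in 16 libraries of AML246 cells. The deposited files hold raw counts of reads per gene for each library. The submitters' processing notes name featureCounts, edgeR, limma and the mm10 build, without their roles, and the aligner and the use of strand are not given in the sources used here. From the counts, CPM and folds were computed in R 4.3.3 with edgeR 4.0.16. TMM factors scaled the libraries, 1 quasi-likelihood model with robust dispersion was fitted over the 16 libraries with 8 group means, and p-values were adjusted by Benjamini-Hochberg over 13652 genes, with calls at an adjusted p under 0.05. The low-count filter removed 0 genes. Alternatives used other scalings, filters, DESeq2 1.42.0 and limma-voom 3.58.1, a replicate term, fewer libraries, and each library left out. When 1 library of a group is left out, the other is taken to vary like the other groups. The scripts were tested on simulated counts. The members and lists were chosen with earlier results of these data known. Values in every library are given for 7 preset members and, per role, the pair with the largest F over the 8 groups. Anln, which is outside that rule, was also given in every library, with its values known by then. Of each other list, up to 3 genes by that F are named.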

Additional observations from a re-analysis of the deposited data

How the results depend on the processing

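Of 119 alternative counts of called members, 110 lay within 1.5 times the count reported. Library size alone gave 17 at 4 days off against 12 days on and 1 at 12 against 8 days off. At 12 against 8 days off DESeq2 gave 2, the replicate block 2 and limma-voom 1. The libraries of a comparison alone gave 13 at 12 against 8 days on, 22 at 4 days off and 19 at 12 days off against 12 days on, and 8 at 12 days off against untreated. The cause of these differences was not tested. Leaving out 1 library gave 72 counts, 53 within 1.5 times. Against untreated they ran over 11 to 21 at 4 days on, 20 to 23 at 8, 22 to 23 at 12, and 10 to 16, 11 to 13 and 19 to 31 at 4, 8 and 12 days off. Against 12 days on they ran over 3 to 8, 16 to 17 and 22 to 36 at 4, 8 and 12 days off. They ran over 0 to 12 at 8 against 4 days on, 3 to 11 at 8 against 4 days off and 0 to 19 at 12 against 8 days off, were 0 at 12 against 8 days on and in the Cd11b-high comparison, and ran over 35 to 43 in the test of all groups. Of 7392 values of single members, 327 lost a call, 207 gained one and 2 were called on the other side of 0 from the value reported, both without replicate A of 12 days off (Ube2c -0.37 against 12 days on, Cdk1 -0.26 against untreated, with 0.34 and 0.30 without replicate B).

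The replicate block gave 26 at 12 days on against untreated (23 without it), 11 at 8 against 4 days on (9), 10 at 4 days off against 12 days on (8), 22 at 4 days off against untreated (20) and 39 in the test of all groups (37), and changed no other count beside that at 12 against 8 days off. Same-lettered libraries deviated together above a correlation of 0.1 in 9 of 28 pairs of groups (range -0.12 to 0.37), among them all 6 pairs of 4 days on and the groups off doxycycline (0.16 to 0.37). Not every pair passed and the labels give no shared source, so the letters were not taken as pairs. With 2 libraries a group, small differences may go unseen, and every p-value leans on the spread shared over groups.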

Other observations

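Genes of DNA replication and of the APC/C held members that rose and members that fell on doxycycline. Of 41 DNA replication genes, 12 were higher and 17 lower at 12 days on against untreated (29.3% and 41.5%, against 30.0% and 33.4% of all genes). At 12 days off against 12 days on, 11 were higher and 18 lower, beside 32.9% and 32.4% of all genes. At 12 days off against untreated, 4 were higher and 21 lower, beside 21.6% and 22.0% of all genes. Orc1 was at 13.4 and 14.4 CPM at 12 days on and 33.6 and 38.1 at 12 days off, against 46.2 and 42.4 untreated (log2 fold -1.67 at 12 days on against untreated, SE 0.11, edgeR adjusted p = 1e-08). Orc1 is the largest subunit of the origin recognition complex. Ccne1 was at 22.5 and 21.7 CPM at 12 days on and 3.34 and 2.51 at 12 days off, against 7.12 and 5.68 untreated, and Ccne1, cyclin E1 of S phase entry, had log2 folds of 1.78 and -1.14 against untreated at these times, both called. Tk1 was at 62.1 and 61.8 CPM at 12 days on and 22.6 and 21.5 at 12 days off, against 54.5 and 54.9 untreated, and Tk1, thymidine kinase, was called lower at 12 days off (-1.31) and not called at 12 days on (0.18).

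Of 14 APC/C subunits and partners, 2 were higher and 5 lower at 12 days on against untreated (14.3% and 35.7%, against 30.0% and 33.4% of all genes). At 12 days off against 12 days on, 6 were higher and 1 lower, beside 32.9% and 32.4% of all genes. Cdc16 was at 90.9 and 93.3 CPM at 12 days on and 220.4 and 179 at 12 days off, against 178 and 186 untreated. Cdc26 was at 25.5 and 29.3 CPM at 12 days on and 78.0 and 51.7 at 12 days off, against 50.8 and 51.6 untreated. The log2 folds at 12 days on against untreated were -0.98 for Cdc16 and -0.90 for Cdc26, and 0.57 for Anapc11, the RING subunit, all called.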
